A study of Mus musculus with 8 samples.

Results

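Fscn1 and 9 further genes that conventional dendritic cells (cDC) express when they mature and migrate were examined in flow-sorted CD103+ CD11b+ cDC of the mesenteric lymph nodes of mice with and without a human BCL2 transgene. The 10 genes are Fscn1, Marcksl1, Cd83, Tmem123, Cacnb3, Samsn1, Traf1, Il15ra, Gadd45b and Anxa3. They were chosen by name, with earlier results of these data known. Each was read from a probe set whose platform annotation names that gene alone. Such a probe set was found for 9 of the 10, 1 for each gene, and Cacnb3 was not analysed here. These 9 were set against 22180 genes tested in all.

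The transgenic group held 4 microarrays of cells from C57BL6 males with the hBcl-2 transgene (human BCL2 driven by the CD11c promoter), and the wild-type group held 4 arrays from control littermates. All mice were 8 weeks old and fed chow. An array was hybridised with 2 to 3 pooled samples, so n = 4 pools a group throughout, and tests measure the spread between these pools. CD11c is carried by many dendritic cells and macrophages, so the transgene is not limited to the sorted subset. Arrays have no read depth; precision is limited by their number.

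Maturing cDC leave the intestine through the lymph and reach the draining node. On the way they reshape the actin cytoskeleton, raise costimulatory molecules and cytokine signals for T cells, and switch on a shared transcriptional programme. Fascin, the product of Fscn1, bundles actin into the long processes that give mature dendritic cells their shape. Within this programme the genes studied here cover the cell's shape (Fscn1, Marcksl1, Anxa3), its surface (Cd83, Tmem123, Il15ra) and its signalling and stress response (Traf1, Samsn1, Gadd45b).

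Levels are on the log2 scale of RMA, a method that subtracts background signal, brings all arrays to a common distribution and combines a set's probes. Differences are transgenic minus wild type on the log2 scale, tested with limma across all genes. A gene is said to have risen or fallen only if its p, adjusted by the Benjamini-Hochberg method over all genes, was under 0.05. Pools of sorted cells are bulk samples, so fewer cells of a type and less RNA per cell cannot be told apart.

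Ccr7 and the 9 genes were bright in both groups, but not every gene of mature cDC was: Lamp3, a lysosomal membrane protein of mature dendritic cells, was at 3.86 in transgenic and 3.95 in wild-type arrays, dimmer than most genes. Ccr7, whose product leads cDC along chemokine gradients into the node, averaged 13.06 ± 0.08 in transgenic and 12.99 ± 0.07 in wild-type arrays (SD, n = 4 each), short of the threshold (adjusted p = 0.848 in limma). The probe sets of all 9 genes were bright, with a mean signal between the 93.8th and the 99.8th percentile of the genes tested. The order of brightness between probe sets is no order of transcript abundance and is not used. The sorting marker genes Itgae (CD103) and Itgam (CD11b) were dim, at 5.40 and 5.58 in transgenic and 5.66 and 5.57 in wild-type arrays. Itgax and Sirpa, further markers of the sorted subset, were brighter, at 9.22 and 8.63 in transgenic and 9.05 and 8.37 in wild-type arrays. None of these 4 markers passed. Transgenic replicate 4 stood apart: its mean correlation with the other arrays of its group was 0.974, against 0.980 to 0.983 for the other 3, and its values had an SD over genes of 1.94, against 2.03 to 2.07 on the other 7 arrays.

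Fscn1 fell in transgenic cDC, and the other 8 genes did not pass. Fscn1 had log2 values of 11.38, 11.14, 11.33 and 10.91 in transgenic arrays, against 11.91, 11.85, 11.92 and 11.86 in wild-type arrays. All 4 transgenic arrays lay below every wild-type array, and they were spread more widely. The means were 11.19 ± 0.21 in transgenic and 11.89 ± 0.03 in wild-type arrays (SD, n = 4 each), a log2 fold change of -0.69 (SE 0.12, 95% interval -0.97 to -0.42; adjusted p = 0.0235 in limma), or 1.62-fold lower. Over all genes 0.848% fell by this test and 1.69% passed in either direction. As the groups did not overlap, leaving out arrays could not change this direction. Among the fits that left out arrays, the call was lost without transgenic replicate 2 (limma adjusted p = 0.0644), without wild-type replicate 1, 2, 3 or 4 (0.0763, 0.0719, 0.0780 and 0.0625), or without transgenic replicates 2 and 4 together (log2 fold change -0.53, adjusted p = 0.0799). In those fits 106 to 187 genes passed over the whole table, against 374 with all arrays.

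**Figure D1:**
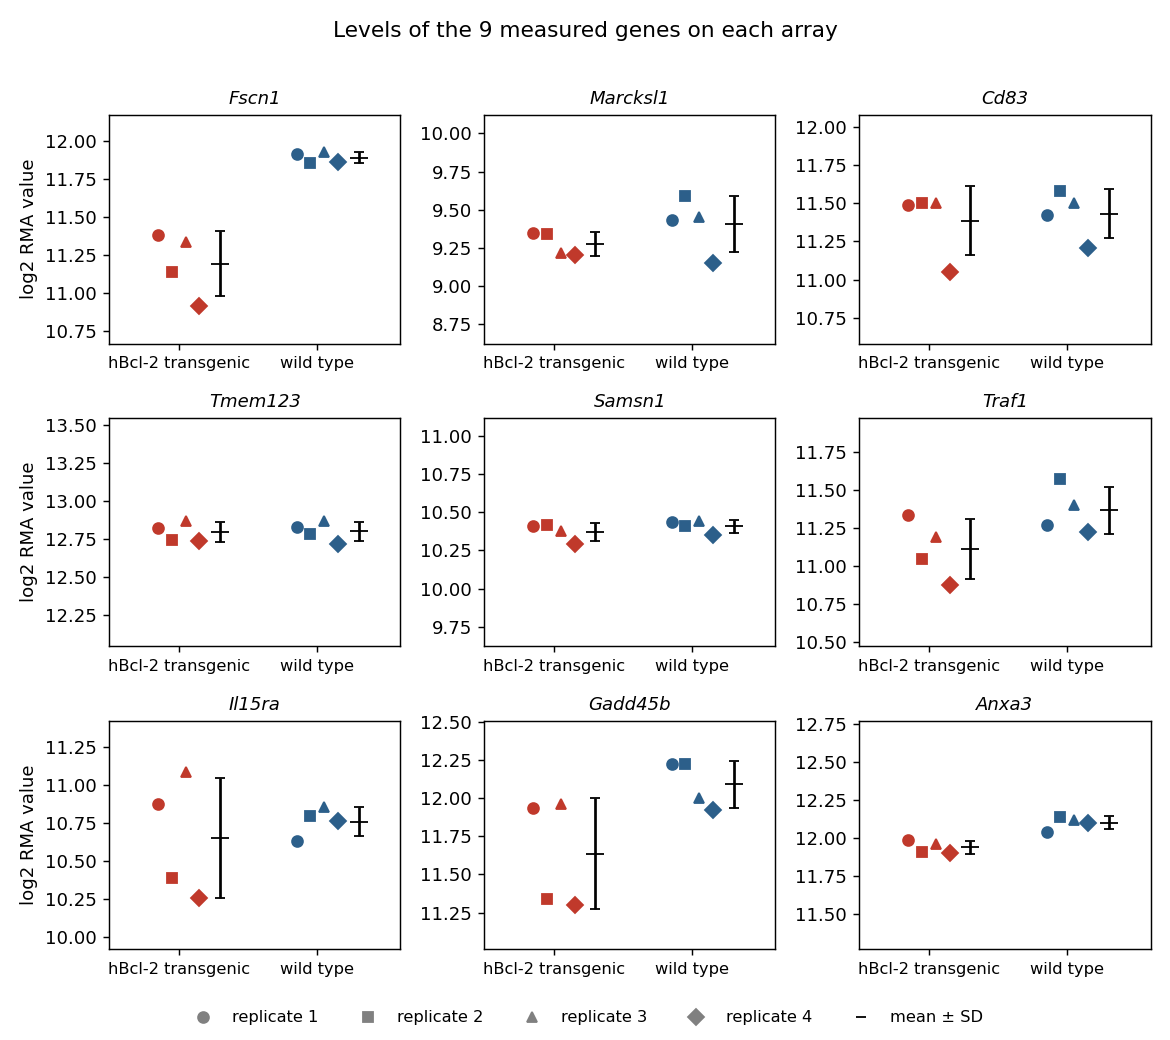
Log2 RMA values of the 9 measured genes on each of the 4 hBcl-2 transgenic and 4 wild-type arrays, with the mean and SD of each group in black; each vertical axis spans the same log2 range. The transgenic arrays of Fscn1 lie between 10.91 and 11.38, all below the wild-type arrays at 11.85 to 11.92.

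The start of Fscn1 is shown because it is the gene of the set that fell. Those of Gadd45b and its paralog Gadd45g are shown because the values of this pair pointed in opposite directions. Each sequence is the 300 bases around a gene start in RefSeq (GRCm38.p6), 250 before and 50 from the start on, written 5′ to 3′ on the gene's strand. The Fscn1 sequence is chr5:142960105-142960404 (+), that of Gadd45b chr10:80929841-80930140 (+) and that of Gadd45g chr13:51846425-51846724 (+). Capitals mark the cAMP response element TGACGTCA and the TATA box hexamer TATAAA, which do not overlap here.
Fscn1: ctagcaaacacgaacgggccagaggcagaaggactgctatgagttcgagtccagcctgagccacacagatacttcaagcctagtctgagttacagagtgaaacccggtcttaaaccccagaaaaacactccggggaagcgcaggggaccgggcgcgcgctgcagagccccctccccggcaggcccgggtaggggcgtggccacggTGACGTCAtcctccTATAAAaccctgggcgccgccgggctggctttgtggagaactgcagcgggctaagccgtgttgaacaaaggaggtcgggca
Gadd45b: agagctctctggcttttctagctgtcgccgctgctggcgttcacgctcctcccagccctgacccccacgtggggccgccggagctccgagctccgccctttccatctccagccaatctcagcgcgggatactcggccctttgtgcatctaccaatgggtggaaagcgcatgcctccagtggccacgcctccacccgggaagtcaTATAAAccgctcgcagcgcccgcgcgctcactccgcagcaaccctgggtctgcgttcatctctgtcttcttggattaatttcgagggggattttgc
Gadd45g: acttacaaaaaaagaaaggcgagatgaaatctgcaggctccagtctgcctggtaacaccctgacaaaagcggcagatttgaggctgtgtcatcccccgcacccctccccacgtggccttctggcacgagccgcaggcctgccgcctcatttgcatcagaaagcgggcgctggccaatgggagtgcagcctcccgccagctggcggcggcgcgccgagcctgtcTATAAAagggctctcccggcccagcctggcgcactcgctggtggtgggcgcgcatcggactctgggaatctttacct

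The table of gene starts held 11 such windows for 8 of the 10 genes, and none for Cd83 and Anxa3. Motifs were searched on both strands. The kappa-B consensus, the site bound by NF-kB, matched 0 of the 11 windows, against 8.46% of 32851 windows of all genes. The AP-1 heptamer TGANTCA matched 1, a window of Il15ra, against 7.81% of all windows. The motifs in capitals were added after the sequences had been read. TGACGTCA matched the Fscn1 window alone, 45 to 38 bases before the start, and is in 1.79% of all windows. TATAAA matched those of Fscn1 (31 to 26 bases before the start) and Gadd45b (46 to 41 bases before it), as well as that of the paralog Gadd45g (27 to 22 bases before it), and is in 13.6% of all windows. A match describes letters in a window of this length and is no evidence of binding.

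The other genes of cell shape differed little. Anxa3, a calcium-dependent phospholipid-binding annexin, had values of 11.99, 11.91, 11.96 and 11.90 in transgenic arrays, against 12.04, 12.14, 12.12 and 12.10 in wild-type arrays. The groups did not overlap, yet the gap was small and the gene did not pass (log2 fold change -0.16, 95% interval -0.37 to 0.05; adjusted p = 0.523 in limma). Fscn1 and Anxa3 were the 2 of the 9 genes with no overlap between groups, both lower in transgenic arrays. That pattern was seen in 4.94% of all genes, and in 21.3% of the 1379 genes at least as bright as the dimmest of the 9. Marcksl1, a relative of the actin- and calmodulin-binding protein kinase C substrate MARCKS, averaged 9.28 ± 0.08 in transgenic and 9.41 ± 0.18 in wild-type arrays (SD, n = 4 each). All 4 of its transgenic values, 9.35, 9.34, 9.22 and 9.20, lay within the wild-type range of 9.15 to 9.59 (95% interval of the difference -0.39 to 0.13; adjusted p = 0.730 in limma).

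The 3 surface genes showed no difference past the test. Cd83 encodes an immunoglobulin-family protein that keeps MHC class II and CD86 on the surface of mature dendritic cells. It had values of 11.49, 11.50, 11.50 and 11.05 in transgenic arrays, against 11.43, 11.58, 11.50 and 11.21 in wild-type arrays. The low transgenic value was that of replicate 4, and the other 3 lay inside the wild-type range. The log2 fold change was -0.04 (95% interval -0.35 to 0.26; adjusted p = 0.941 in limma), and 0.07 without that array. Tmem123 encodes porimin, a mucin-like membrane protein named for its part in oncotic cell death in human cells. Its interval was narrow: it had values of 12.83, 12.75, 12.87 and 12.74 in transgenic arrays, against 12.83, 12.79, 12.87 and 12.72 in wild-type arrays, and a log2 fold change of -0.01 (95% interval -0.22 to 0.21; adjusted p = 0.988 in limma).

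Il15ra encodes the receptor chain with which dendritic cells hold interleukin 15 and present it to NK and CD8 T cells. It had values of 10.87, 10.39, 11.08 and 10.26 in transgenic arrays, against 10.63, 10.80, 10.85 and 10.76 in wild-type arrays. Transgenic replicates 1 and 3 lay above every wild-type array, and replicates 2 and 4 lay below every one. The mean difference was therefore small with a wide error (log2 fold change -0.11, SE 0.18, 95% interval -0.50 to 0.29; adjusted p = 0.875 in limma).

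Among the signalling genes, Gadd45b came nearest to the threshold. It is a stress-inducible protein that binds kinases upstream of p38 and JNK. It had values of 11.94, 11.34, 11.96 and 11.30 in transgenic arrays, against 12.22, 12.22, 12.00 and 11.92 in wild-type arrays. Replicates 2 and 4 of the transgenic group lay below every wild-type array, while replicates 1 and 3 reached the lower end of the wild-type range. The log2 fold change was -0.46 (SE 0.18, 95% interval -0.85 to -0.07), with an unadjusted p of 0.0258 and an adjusted p of 0.276 in limma. Without transgenic replicates 2 and 4 it was -0.14.

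Traf1, an adaptor that tumour necrosis factor receptors induce and recruit, had values of 11.34, 11.05, 11.19 and 10.88 in transgenic arrays, against 11.27, 11.57, 11.40 and 11.22 in wild-type arrays. Of its transgenic arrays, 3 lay below every wild-type array. It did not pass (log2 fold change -0.25, 95% interval -0.54 to 0.04; adjusted p = 0.459 in limma). Samsn1, an adaptor with an SH3 and a SAM domain that dampens B cell activation, averaged 10.37 ± 0.06 in transgenic and 10.41 ± 0.04 in wild-type arrays (SD, n = 4 each). Its interval of -0.25 to 0.17 was about as narrow as those of Tmem123 and Anxa3, with an adjusted p of 0.927 in limma.

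**Figure D2:**
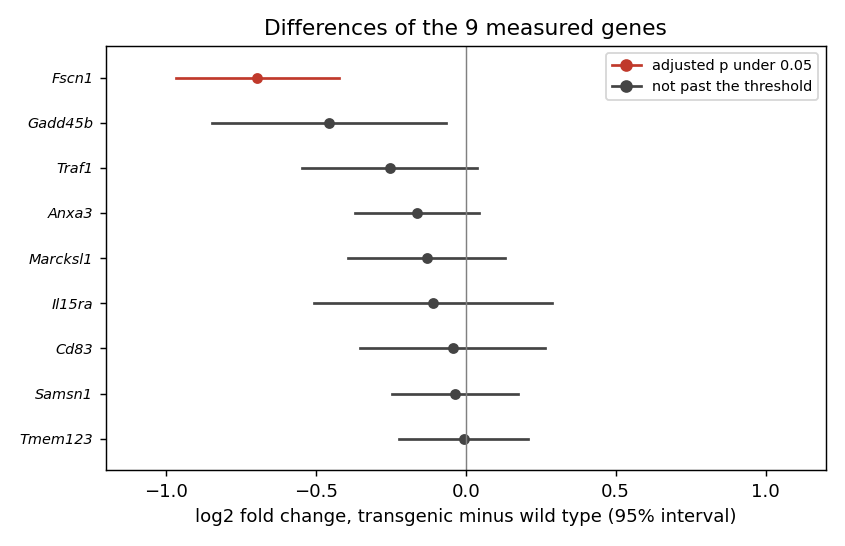
Log2 fold change of each of the 9 measured genes, transgenic minus wild type (horizontal axis), with its 95% interval from limma; red marks an adjusted p under 0.05. Fscn1 at -0.69 is the 1 gene past the threshold, and the intervals of Fscn1 and Gadd45b lie wholly below 0.

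All 9 log2 fold changes were negative, with a median of -0.13, where 50.3% of all genes were negative and their median was -0.0016. Bright genes in general leaned the same way. Among the 1379 genes at least as bright as the dimmest of the 9, 64.5% were negative, with a median of -0.09. Their median deviation from the wild-type mean was -0.02, -0.10, -0.02 and -0.23 on transgenic replicates 1 to 4, and between -0.01 and 0.01 on the wild-type arrays. The part of this lean in the values of the 9 genes was not tested. On transgenic replicate 4, 7 of the 9 genes had their lowest value of all 8 arrays, a count that was not made over all genes. With quantile normalization applied again, without transgenic replicate 4, or without replicates 2 and 4 together, 6 of the 9 were negative, and 7 with array weights.

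Averaged over the 9 genes, the deviation from the wild-type mean was -0.07, -0.27, -0.08 and -0.41 on transgenic replicates 1 to 4, and -0.01, 0.08, 0.03 and -0.11 on wild-type replicates 1 to 4. Transgenic replicates 2 and 4 were the low arrays, with 5 and 7 genes below every wild-type array, against 2 and 3 on replicates 1 and 3. These counts were not made over all genes. The medians of the 1379 bright genes were also lowest on replicates 2 and 4, at -0.10 and -0.23, against -0.02 on replicates 1 and 3. Fscn1 deviated by -0.97 to -0.51 on the 4 transgenic arrays, and was lowest on replicates 2 and 4, as were Gadd45b, Traf1 and Il15ra.

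**Figure D3:**
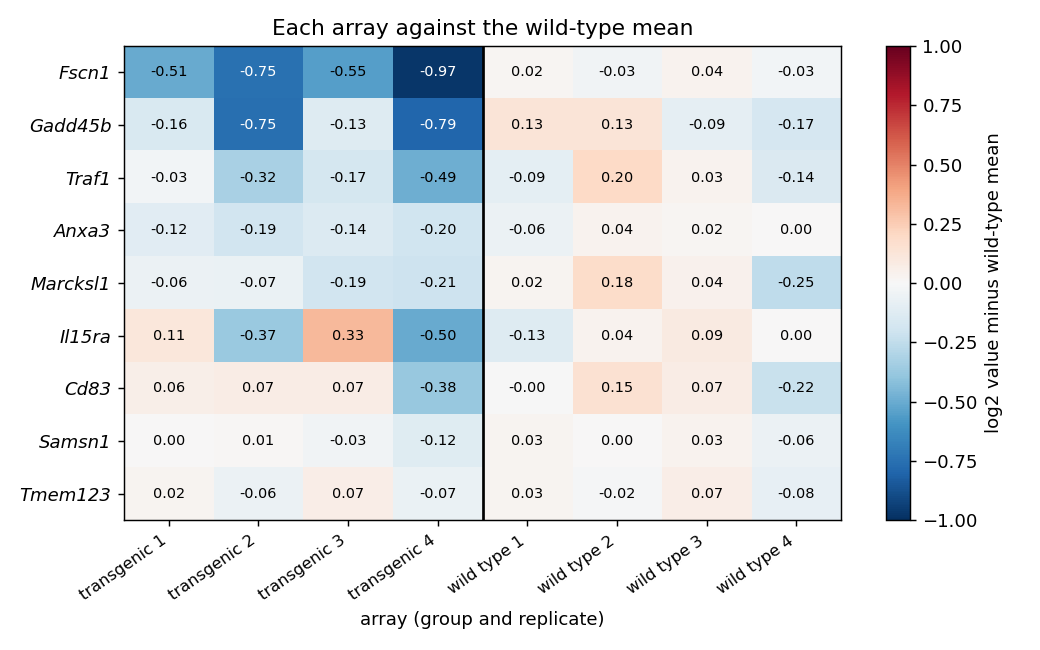
Log2 value minus the wild-type mean for each of the 9 genes (rows) on each array (columns, transgenic left of the line and wild type right of it), with blue below and red above that mean. Fscn1 is blue on all 4 transgenic arrays, and transgenic replicates 2 and 4 hold the darkest cells for Fscn1 and Gadd45b, down to -0.97.

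Some markers of other cell types differed between the groups too. The summed linear signal of 6 plasmacytoid dendritic cell markers ran from 1585 to 2430 in transgenic and from 1023 to 1344 in wild-type arrays, that of 5 NK cell markers from 1464 to 2491 in transgenic and from 739 to 1143 in wild-type arrays, and that of 6 monocyte or macrophage markers from 378 to 1731 in transgenic and from 273 to 354 in wild-type arrays. In each of these 3 lists 1 marker rose, and 1 bright probe set gave the largest part of the first sum (Bst2) and of the second (Klrd1). Bst2 rose among the plasmacytoid markers, at 10.31 in transgenic and 9.55 in wild-type arrays (adjusted p = 0.0204 in limma), and the groups overlapped for the other 5, Siglech among them. Klrd1 rose among the NK cell markers, at 10.68 in transgenic and 9.18 in wild-type arrays (adjusted p = 0.00644 in limma), and the groups overlapped for Ncr1, Klrb1c, Eomes and Gzma. Among the monocyte or macrophage markers Adgre1 rose, at 7.41 in transgenic and 6.12 in wild-type arrays (adjusted p = 0.0128 in limma). The highest sum of that list was on transgenic replicate 2, where Ly6c2 was at 10.38, against 5.81 to 8.28 on the other transgenic arrays. C1qa was lower without overlap but did not pass, at 6.27 in transgenic and 6.44 in wild-type arrays, and Cd14, Mertk and Fcgr1 overlapped. The sums of 5 T cell markers (240 to 258 in transgenic, 188 to 257 in wild-type arrays), 4 B cell markers (230 to 469 in transgenic, 231 to 337 in wild-type arrays), 5 neutrophil markers (158 to 191 in transgenic, 141 to 182 in wild-type arrays) and 4 stromal or endothelial markers (136 to 186 in transgenic, 147 to 170 in wild-type arrays) came closer or overlapped. Of the 5 T cell markers 1, Cd4, rose, and 3 had a negative log2 fold change. The lowest was that of Cd8a (-0.75), at 5.22 in transgenic and 5.97 in wild-type arrays, which did not pass (adjusted p = 0.215 in limma). For 5 markers of cDC1, another cDC subset, the sum ran from 2486 to 3204 in transgenic and from 3187 to 3514 in wild-type arrays. Of these cDC1 markers 0 passed, and 4 had a negative log2 fold change. Irf8 was lower without overlap, at 10.09 in transgenic and 10.58 in wild-type arrays (adjusted p = 0.161 in limma). The 5 cDC markers were Flt3, Zbtb46, Itgax, H2-Aa and H2-Ab1. Their sum ran from 12235 to 15614 in transgenic and from 16258 to 17996 in wild-type arrays. The MHC class II genes H2-Aa and H2-Ab1 gave the largest part of it. Of the 5, 4 had a negative log2 fold change, and Itgax a positive one (0.17). In limma 0 of these 5 passed, with 3 at an unadjusted p under 0.05 in the lower direction and 0 in the higher one. At that p 6.60% of all genes were lower and 6.56% higher, and of the 1379 bright genes 22.7% were lower. The part of these markers in the fall of Fscn1 was not tested.

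The families of the 9 genes give a frame for these values. The other fascins were dim in both groups and did not pass: Fscn2 was at 5.41 in transgenic and 5.33 in wild-type arrays, and Fscn3 at 4.82 in transgenic and 4.89 in wild-type arrays. Marcks, at 10.16 ± 0.03 in transgenic and 10.22 ± 0.06 in wild-type arrays (SD, n = 4 each), differed as little as Marcksl1 (95% interval -0.28 to 0.14; adjusted p = 0.844 in limma). None of 6 measured TRAF genes passed, with 0 at an unadjusted p under 0.05 in the higher direction (6.56% of all genes) and 1, Traf5, in the lower one (6.60% of all genes). Traf5 was at 7.74 ± 0.36 in transgenic and 8.58 ± 0.29 in wild-type arrays (SD, n = 4 each), with an adjusted p of 0.0702 in limma. Of the changes to the variance model, the scaling, the genes or the arrays, 1 brought it past the threshold, leaving out the dimmer 50% of genes (adjusted p = 0.0478).

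Gadd45g, a stress-inducible paralog of Gadd45b, rose in transgenic cDC. It had values of 6.92, 7.46, 7.11 and 6.76 in transgenic arrays, against 6.07, 6.16, 6.28 and 6.12 in wild-type arrays. Its lowest transgenic value was above its highest wild-type value. The log2 fold change was 0.91 (SE 0.15, 95% interval 0.58 to 1.24; adjusted p = 0.0191 in limma), and 0.839% of all genes rose by this test. It no longer passed without wild-type replicate 1, 2, 3 or 4 (adjusted p = 0.0649, 0.0630, 0.0502 and 0.0571). The change of Gadd45b relative to Gadd45g within an array was -1.37 (exact two-sided permutation p = 0.0286, the smallest that 70 assignments can give; adjusted over 5 pairs of relatives 0.0714). All 5 pairs were chosen after the values were seen, which the adjustment does not allow for.

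Il15, which encodes the ligand that Il15ra holds, was at 9.94, 9.53, 10.07 and 10.10 in transgenic arrays, against 10.33, 10.41, 10.59 and 10.52 in wild-type arrays. The groups did not overlap, but it did not pass (log2 fold change -0.55, SE 0.14; adjusted p = 0.0945 in limma). The change of Il15ra relative to Il15 was 0.44 (exact two-sided permutation p = 0.143, adjusted over the 5 pairs 0.179). Il2ra, the interleukin 2 receptor chain that mature cDC also carry, was at 9.21, 8.60, 7.04 and 7.28 in transgenic arrays and at 8.78 to 9.01 in wild-type arrays. Its wide transgenic spread left an interval of -1.82 to 0.0026 (adjusted p = 0.381 in limma).

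Of 11 measured annexins 0 passed in limma, with 4 at an unadjusted p under 0.05 in the lower and 2 in the higher direction. At that p 6.60% of all genes were lower and 6.56% higher. Of the 1379 bright genes, which include Anxa2, Anxa4 and Anxa5, 22.7% were lower. Anxa2, which links membranes to actin, was at 10.34, 10.45, 9.43 and 9.59 in transgenic arrays, against 11.12, 11.02, 10.68 and 11.00 in wild-type arrays, with no overlap (95% interval of the difference -1.51 to -0.50; adjusted p = 0.0627 in limma). Of the changes to the variance model, the scaling, the genes or the arrays, 3 brought it past the threshold: leaving out transgenic replicate 2 (adjusted p = 0.0447), trended and robust variance moderation (0.0450) and leaving out the dimmer 50% of genes (0.0419). Anxa4 and Anxa5 had log2 fold changes of -0.60 (SE 0.19) and -0.42 (SE 0.13) and did not pass. The change of Anxa3 relative to Anxa2 within an array was 0.84 (exact two-sided permutation p = 0.0286, adjusted over the 5 pairs 0.0714). Those of Traf1 relative to Traf5 and of Marcksl1 relative to Marcks were 0.59 (p = 0.0857, adjusted 0.143) and -0.06 (p = 0.571, adjusted 0.571) by the same exact permutation test. These pairs too were chosen after the values were seen. Sash1, a relative of Samsn1, was at 6.14 ± 0.29 in transgenic and 5.65 ± 0.17 in wild-type arrays (SD, n = 4 each), with an adjusted p of 0.181 in limma.

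**Figure D4:**
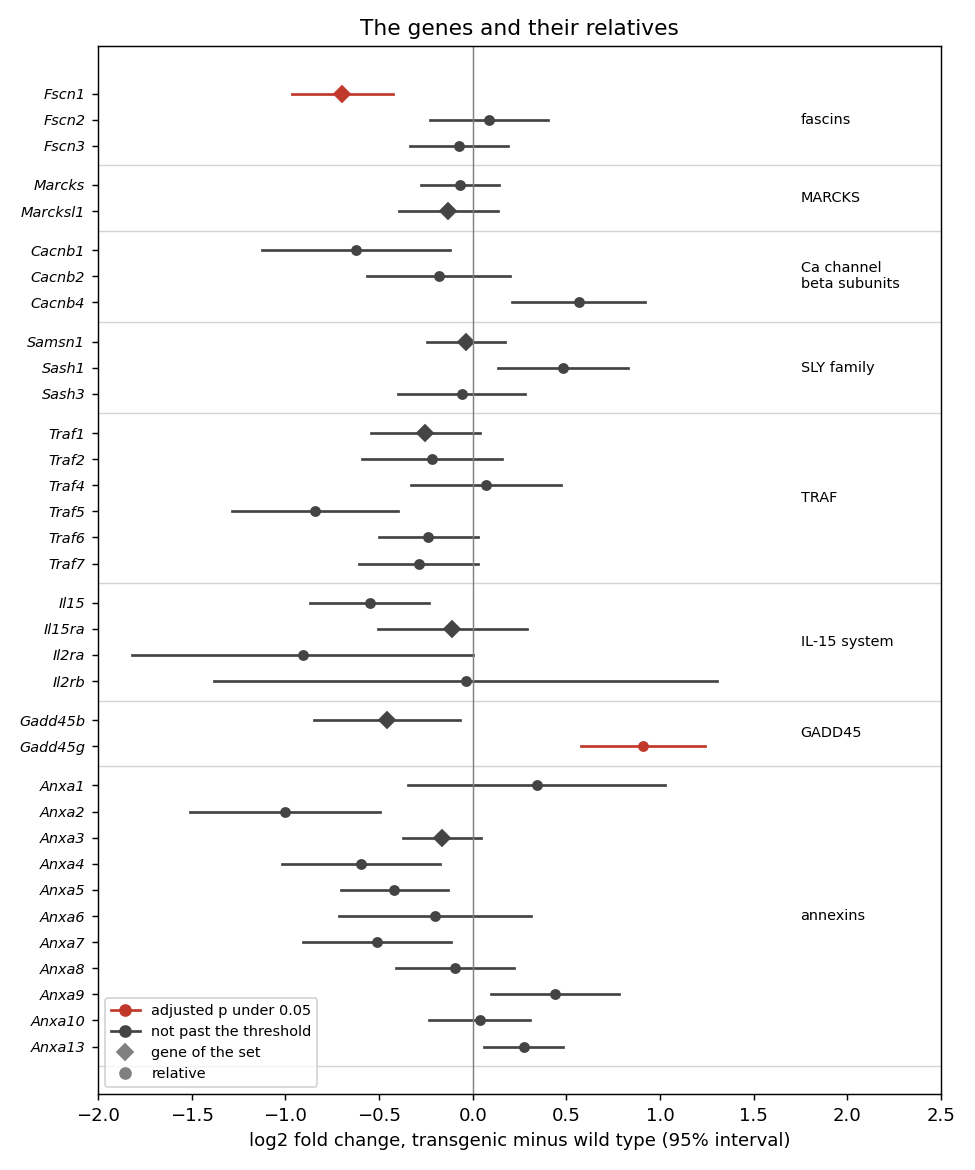
Log2 fold change, transgenic minus wild type (horizontal axis), with 95% intervals from limma for the genes of the set (diamonds) and their measured relatives (circles), grouped by family; red marks an adjusted p under 0.05. Fscn1 at -0.69 and Gadd45g at 0.91 are the genes past the threshold.

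The wider mature migratory programme was followed through 43 measured genes other than the 9. Of these 0 rose, 10 fell and 33 did not pass, against 0.848% of all genes and 4.93% of the 1379 bright genes that fell. The median log2 fold change was -0.42, and 36 of 43 were negative. The list was chosen with earlier results of these data known, so setting it against these shares is no test of it. The 6 genes of lowest adjusted p were Cd40, Tnfrsf4, Ebi3, Socs2, Swap70 and Cd274. Swap70, which signals to Rac and shapes the actin cytoskeleton, was at 10.83, 10.55, 10.67 and 10.40 in transgenic arrays, against 11.44, 11.44, 11.52 and 11.28 in wild-type arrays (log2 fold change -0.81, SE 0.12; adjusted p = 0.0128 in limma). Ebi3, a subunit shared by interleukins, had the lowest log2 fold change (-1.78, SE 0.25), and Cd40, the receptor for T cell help, the next (-1.37, SE 0.17). At the other end, Tnfrsf9, which encodes 4-1BB, and Socs1, an inhibitor of cytokine signalling, were at 0.34 (SE 0.18) and 0.34 (SE 0.10), and neither passed. The count of 10 was 5 without wild-type replicate 2 or 3, 6 without wild-type replicate 4, and 4 without transgenic replicates 2 and 4 together, all lower in transgenic arrays.

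**Figure D5:**
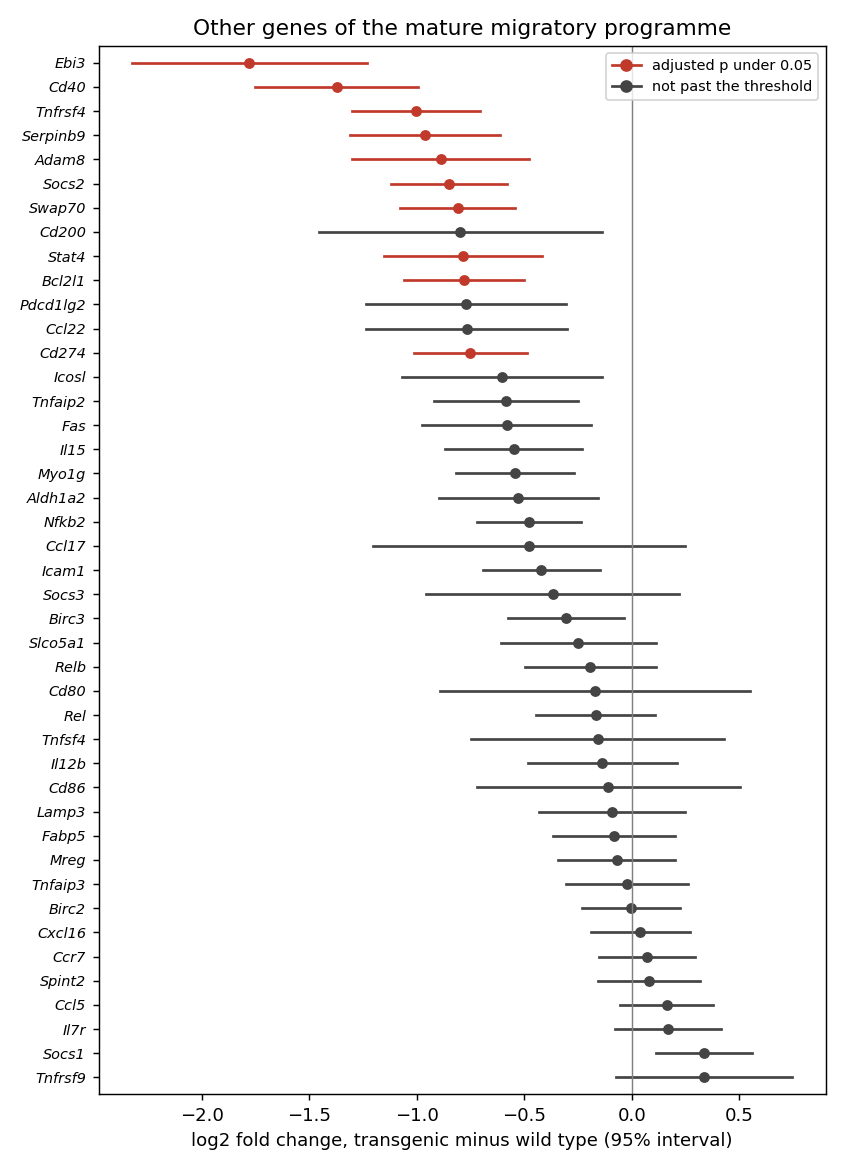
Log2 fold change, transgenic minus wild type (horizontal axis), with 95% intervals from limma for 43 other genes of the mature migratory programme, ordered by log2 fold change from lowest (top) to highest; red marks an adjusted p under 0.05. The 10 red genes all lie below 0, and the scale runs from Ebi3 at -1.78 to Tnfrsf9 at 0.34.

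The genes whose profile over the 8 arrays lay closest to that of Fscn1 were Wnk1, Clic4, Rnf115, Myh9 and Tfe3. Likeness was the root mean square difference between log2 profiles, each centred on its own mean, over 12698 genes with an SD at least 50% of that of Fscn1. Wnk1, a kinase that controls ion transport, differed by 0.069, Clic4, an intracellular chloride channel protein, by 0.070, and Rnf115, a ubiquitin ligase, by 0.071. Myh9, the heavy chain of non-muscle myosin IIA, and Tfe3, a transcription factor of lysosomal genes, differed by 0.075 and 0.081. Their log2 fold changes ran from -0.67 (Myh9) to -0.58 (Wnk1), which the choice by profile fixes. Of the 8 other genes of the set, 3 varied enough to be ranked: Gadd45b came 378th, Traf1 864th and Il15ra 2211th in likeness to Fscn1.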

How the data were processed

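Gene expression was measured on 8 arrays of sorted CD103+ CD11b+ cDC, and per the labels' protocols 2.5 ng of RNA a sample was amplified over the whole transcriptome and labelled with biotin. The deposited values are log2 values per probe set, which the authors made in Partek by RMA (per the submitters' processing notes, without versions). As RMA makes the distributions alike, a shift of all genes in 1 direction would not be seen, and differences of very bright probe sets can be compressed. Groups came from the labels.

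Of 34390 probe sets, 23521 name 1 gene in the platform annotation. Where a gene had several (1082 genes), the brightest on average was taken. This gave 22180 genes, with no filter on signal. The comparison used limma 3.58.1 (lmFit, eBayes) under R 4.3.3, with adjustment over all genes. Array weights also used limma, with statmod 1.5.0 loaded alongside it. Figures used matplotlib 3.10.9 in Python 3.11.15. The fit was tested on simulated data. Differences between relatives within an array were compared by exact permutation over 70 assignments.

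The genes, families, programme list, marker lists and alternatives were chosen with earlier results of these data known, so no list was tested as a set. All 10 genes are named. From the programme and less mature cDC lists, the text names up to 6 genes past the threshold and the 2 highest and 2 lowest by fold change, and up to 4 genes a family. Alternatives were trended and robust moderation, a filter on dim genes, quantile normalization again, median centring, the mean over probe sets, array weights, a block for the replicate number and leaving out each array. Leaving out transgenic replicates 2 and 4 together was added after seeing the data.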

Additional observations from a re-analysis of the deposited data

Results flagged for a closer look

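In 5 of 82 groups of 4 arrays examined (41 genes), 1 array lay far from the other 3. Chance marks about 1 in 20 such groups. Among the genes of the set this was Cd83 on transgenic replicate 4, at 11.05, against 11.49 to 11.50 on the other 3 transgenic arrays. Among relatives and programme genes it was Fscn2 on transgenic replicate 2 (5.20, against 5.48 to 5.49), Anxa4 on wild-type replicate 1 (10.31, against 10.37 to 10.38) and Ccr7 on wild-type replicate 2 (13.10, against 12.95 to 12.96). Among the genes of less mature cDC it was Csf1r on wild-type replicate 4 (6.76, against 6.04 to 6.13).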

How the results depend on the processing

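The labels give both groups replicate numbers 1 to 4, but nothing ties equal numbers together, and the deviations of same-numbered arrays correlated at -0.03, -0.03, 0.08 and -0.02. With the replicate block 187 genes passed, against 374, and 0 of the 9 genes, since Fscn1 at -0.69 had an adjusted p of 0.0630 in limma (0.00980 to 0.0799 over its alternatives); the cause was not tested. With it Anxa2 (0.0492) and Traf5 (0.0416) passed and Csf1r (0.0645) did not. Leaving out each array gave 106 to 379 genes, 0 to 1 of the 9 genes, 5 to 10 programme genes and -0.76 to -0.60 for Fscn1, with fewer arrays in each fit. Without transgenic replicates 2 and 4 the values were 148 genes, 0 of the 9, 4 programme genes and -0.53 for Fscn1. The 10 programme genes were 8 to 12 in the other fits of all arrays, and 7 with the block. The median of the 9 genes ran from -0.18 to -0.07. Of genes that did not pass, signs turned for Cd83 (0.0079 with quantile normalization again, 0.011 with array weights, 0.066 without transgenic replicates 2 and 4, -0.118 to 0.068 leaving out arrays), Tmem123 (0.0079, 0.0077, 0.048, and -0.034 to 0.015), Il15ra (0.22 without transgenic replicates 2 and 4, -0.253 to 0.023 leaving out arrays), Samsn1 (0.053) and Marcks (0.016) with quantile normalization again, Fscn2 (-0.024 to 0.17) and Fscn3 (-0.14 to 0.0055) leaving out arrays. The signs of Fscn1, Marcksl1, Traf1, Gadd45b and Anxa3 held in all 16 alternatives, but not all of these could turn them. Trended and robust moderation, the filter on dim genes, the mean over probe sets and the replicate block left their log2 fold changes unchanged. For Fscn1 and Anxa3, whose groups did not overlap, leaving out arrays could not turn the sign either. No scaling moved the median of all genes by over 0.1. As RMA and these scalings bring the arrays to a common level, this could not show a shift of all genes.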

Other observations

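Genes that less mature cDC carry were followed as a counterpart to the mature programme. Of 18 measured, 2 rose and 0 fell, and 16 did not pass, with a median log2 fold change of 0.21 and 4 negative. Of all genes 0.839% rose, 0.848% fell and 50.3% were negative. This list too was chosen with earlier results of these data known, so these shares are no test of it. Ccr6, the receptor for the gut chemokine CCL20, was at 9.25, 9.45, 9.18 and 8.71 in transgenic arrays, against 7.96, 8.00, 7.91 and 7.99 in wild-type arrays, with no overlap (log2 fold change 1.18, SE 0.15; adjusted p = 0.00692 in limma, under 0.05 in all 16 alternatives). Csf1r, a growth factor receptor of macrophages and some dendritic cells, was at 7.62, 7.64, 7.26 and 7.10 in transgenic arrays, against 6.06, 6.13, 6.04 and 6.76 in wild-type arrays (log2 fold change 1.16, SE 0.19; adjusted p = 0.0183). Limma no longer called it once wild-type replicate 1, 2 or 3 was left out (adjusted p = 0.0649, 0.0668 and 0.0648), once transgenic replicates 2 and 4 both were (0.0623), and with the replicate block. Clec12a, a C-type lectin, had the highest log2 fold change (1.33, SE 0.29) and just missed the threshold (adjusted p = 0.0503). It passed in 5 alternatives, with trended and robust moderation (0.0432 in limma), without the dimmer 50% of genes (0.0340), with the mean over probe sets (0.0499), with array weights (0.0141) and without transgenic replicate 4 (0.0199). Cybb, the catalytic chain of the phagocyte oxidase, was at 8.63, 9.05, 8.25 and 6.41 in transgenic arrays, against 8.97, 9.06, 8.83 and 9.30 in wild-type arrays, with an adjusted p of 0.413 in limma. Clec10a also did not pass (-0.32, SE 0.28), and was dim in both groups. Csf1r is also a macrophage gene. In transgenic arrays the macrophage gene Adgre1 rose, while C1qa, Mertk and Fcgr1 did not pass, with log2 fold changes of -0.17, 0.07 and -0.03. Their part in the rise of Csf1r was not tested.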
